A study of Mus musculus with 4 samples.

Results

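The matrix metalloproteinases (MMPs), their tissue inhibitors (TIMPs) and the ADAMTS proteases were followed in the mouse endometrium, which lines the uterus. Members were taken by symbol, as Mmp, Timp or Adamts followed by a number (and for MMPs an optional letter). This gave 44 of the 28545 genes listed in each library, of which 21 were MMP, 4 TIMP and 19 ADAMTS genes. Polyadenylated RNA was sequenced in 4 libraries, and the design text of the series gives proestrus, the phase before ovulation, for the mice. The 2 libraries labelled Cre carry the title SMAD7 Cre+/- and the treatment label CKO, and the 2 labelled floxed carry SMAD7fl/fl and the treatment label blank. Per the labels, the Smad7 allele was made by injecting guide RNA, a donor carrying loxP sites and Cas9 mRNA into fertilised eggs, a protocol given for all 4 libraries. Cre recombinase excises DNA flanked by loxP sites, and the question is which endometrial transcripts differ where Smad7 was to be deleted. The sources used here give neither the Cre line nor the cells in which it acts, and neither the strain nor the age nor any pooling of animals. The labels do not tie each library to its own animal, and a p-value here therefore reflects differences among libraries that may be technical.

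MMPs are zinc proteases that cut collagens, gelatin, laminins and other extracellular matrix proteins, most of them secreted as inactive proenzymes and some anchored in the cell membrane. TIMPs bind active MMPs and block them, and one of them, Timp3, also inhibits ADAM and ADAMTS enzymes. ADAMTS enzymes are secreted proteases that process procollagen or cut large proteoglycans such as versican. In the uterus these proteases take part in the remodelling of stroma during the cycle, at implantation and after birth.

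The promoters of several inducible MMP genes hold a TATA box with an AP-1 element upstream of it, the site of FOS and JUN proteins. The RefSeq promoter table (GRCm38.p6) held 33 start sites of 30 of the 44 members, not those of Mmp2 or Mmp9. The 250 bases before each start are shown for 3 members whose values were lower in both libraries labelled Cre. Mmp3 and Mmp7 have a window with an AP-1 element and a TATA box, and Mmp11 one with neither. They do not stand for all members: the Mmp12 windows held no TATA box, and those of Mmp20 and Mmp21 a TATA box but no AP-1 element. Capitals mark the AP-1 element (TGACTCA, which reads TGAGTCA on the other strand), the TATA box (core TATAAA) and the GC box (core GGGCGG), searched on both strands with overlaps between matches allowed. The windows of Mmp3 (chr9:7445572-7445821, plus strand), Mmp7 (chr9:7691840-7692089, plus strand) and Mmp11 (chr10:75932503-75932752, minus strand) read 5′ to 3′:
Mmp3: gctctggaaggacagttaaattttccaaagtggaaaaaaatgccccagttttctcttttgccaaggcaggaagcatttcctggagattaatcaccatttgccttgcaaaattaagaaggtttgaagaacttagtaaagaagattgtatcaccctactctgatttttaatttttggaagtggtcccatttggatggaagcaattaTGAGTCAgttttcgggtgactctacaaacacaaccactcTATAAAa
Mmp7: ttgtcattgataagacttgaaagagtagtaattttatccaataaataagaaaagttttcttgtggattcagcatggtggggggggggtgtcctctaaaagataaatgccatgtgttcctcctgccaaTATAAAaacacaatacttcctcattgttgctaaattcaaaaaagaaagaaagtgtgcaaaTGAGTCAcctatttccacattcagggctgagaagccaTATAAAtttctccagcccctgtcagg
Mmp11: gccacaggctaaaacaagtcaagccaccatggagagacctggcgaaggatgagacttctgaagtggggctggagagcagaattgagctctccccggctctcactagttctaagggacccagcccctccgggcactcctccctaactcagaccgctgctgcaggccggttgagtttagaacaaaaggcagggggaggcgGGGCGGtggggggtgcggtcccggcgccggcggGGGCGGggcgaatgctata
In Mmp3 the AP-1 element began 46 bases and the TATA box 7 bases before the RefSeq start. In Mmp7 they began 63 bases and 26 bases before it, with another TATA box core at 123 bases; it is the first of 2 RefSeq starts of the gene. The Mmp11 window held GC boxes at 52 and 19 bases and neither of the other motifs. Over all members, 5 of 33 windows (15.2%) held the AP-1 element, those of Mmp3, Mmp7, Mmp10, Mmp12 and Mmp13, against 4.46% of 32851 windows of all genes. The TATA box core was in 21.2% of member windows and 12.4% of all windows, and the GC box core in 48.5% and 32.7%. These matches describe letters in a window and are not evidence of binding.

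Facts of the libraries bear on every value given here. Total counts were 19830568 and 17444368 for Cre replicates 1 and 2, against 22950532 and 18193504 for floxed replicates 1 and 2. Smad7, the targeted gene, went against the labels: it stood at 49.9 and 33.9 FPKM (fragments per kilobase of exon, scaled to the library total) in the libraries labelled Cre, against 7.79 and 7.81 FPKM in those labelled floxed (log2 fold change 2.42 ± 0.28 SE, edgeR adjusted p = 0.0981). Whether the labels are exchanged, or the targeted allele still gives a transcript that is counted, was not tested, and each direction below would turn round if the labels were exchanged. Directions are those of the libraries as labelled. The pair labelled Cre had a biological coefficient of variation of 0.163 and a Spearman correlation of 0.985, while the pair labelled floxed had 0.403 and 0.908, against 0.912 to 0.920 between groups. Endometrial markers were present in all 4 libraries, as 8 of 8 epithelial and 7 of 7 stromal genes were tested, but so were smooth muscle markers: Myh11 stood at 361.8 and 296.5 FPKM in the libraries labelled Cre, against 166.8 and 93.5 FPKM in those labelled floxed. Mesothelial markers, of the outer surface of the uterus, summed to 42.2 and 23.5 FPKM in the Cre pair, against 12.7 and 8.40 FPKM in the floxed pair, with 4 of 4 higher without overlap between the groups. Of 5 endothelial markers 1 was higher and 2 were lower without overlap, where 24.7% and 23.6% of all genes tested were. In whole tissue, fewer cells of a type and less RNA per cell cannot be told apart.

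The secreted MMPs Mmp2, Mmp3, Mmp7, Mmp9 and Mmp11 all stood lower in both libraries labelled Cre than in either labelled floxed, by a fitted 2.38-fold for Mmp7 to 5.31-fold for Mmp11. The other tested secreted MMPs, Mmp19 and Mmp28, had log2 fold changes above 0, of 0.40 and 0.38. No member passed the test. In edgeR's quasi-likelihood test, with p-values adjusted by Benjamini-Hochberg over the 13513 genes averaging 1 FPKM or more, 0 of 29 tested members were called at an adjusted p under 0.05. Over all genes 0.0% were called in either direction. At an unadjusted p under 0.05, 7 of the 29 were lower (24.1%, where 6.59% of all genes were) and 0 were higher (7.3% of all genes). At an adjusted p under 0.1, 1 member, Mmp11, was lower (0.296% of all genes were) and 0 were higher. Fitted changes of 2-fold or more were lower for 7 members (7.07% of all genes) and higher for 1, Adamts3 (6.05% of all genes). Among these 7 was Mmp25, whose groups overlap and whose mean reached 1 FPKM only through floxed replicate 1, at 3.05 FPKM. DESeq2 called 4 of the 29 members lower, Mmp7, Mmp9, Mmp11 and Adamts7, and 0 higher, while limma on log2(FPKM + 1) called 0. Over all 13513 genes tested DESeq2 called 405 lower and 438 higher, and limma 0 in either direction. The groups did not overlap, on counts scaled to each library's total and by TMM (CPM), for 11 members that were lower (37.9%, against 23.6% of all genes) and 8 that were higher (27.6%, against 24.7%). The median log2 fold change (libraries labelled Cre over those labelled floxed) was -0.69 for 13 tested MMP genes, 0.25 for 3 TIMP genes and 0.15 for 13 ADAMTS genes, beside -0.033 over all genes tested. Both counts at an unadjusted p under 0.05, 7 lower and 0 higher, depended on which library was left out. Each such fit assumes that the lone sample varies like the remaining pair. With floxed replicate 1 left out, the MMP median was -0.28 and the ADAMTS median 0.78. The ADAMTS median was -0.27 with floxed replicate 2 left out and -0.10 with Cre replicate 1 left out.

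**Figure D1:**
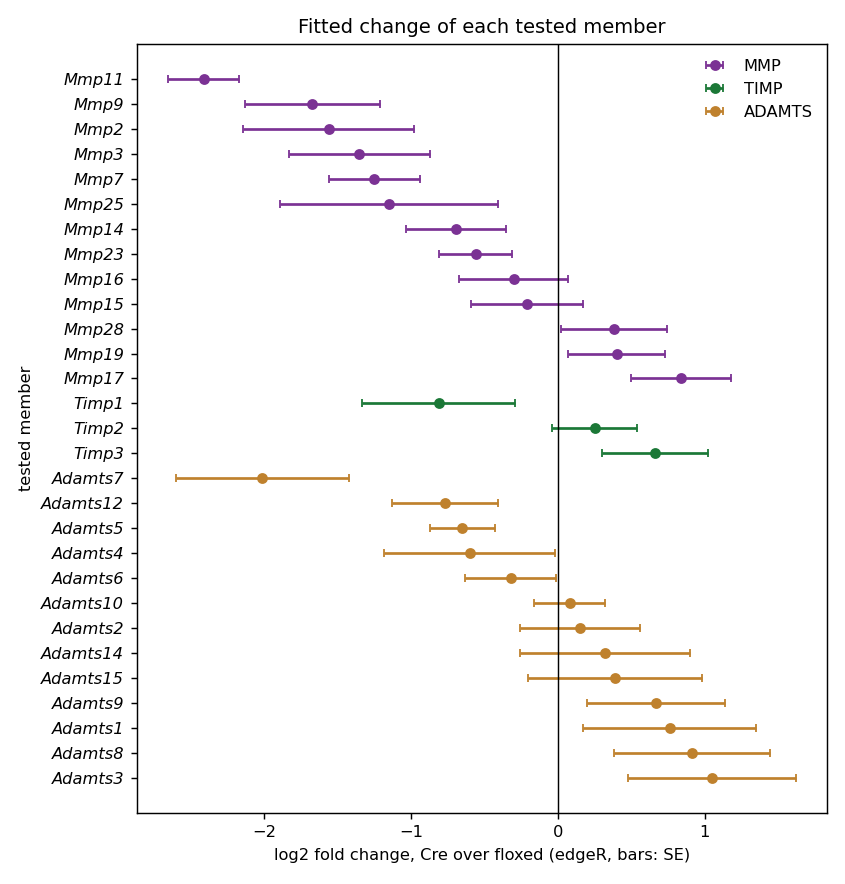
Fitted log2 fold change of the 29 tested members, libraries labelled Cre over those labelled floxed, on the horizontal axis, with bars giving the SE from edgeR and colours giving the family. Mmp11 lies farthest to the left at -2.41 and Adamts3 farthest to the right at 1.05.

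Both gelatinases, which cut denatured collagen and basement membrane collagen, were lower in both libraries labelled Cre. Mmp2 (chromosome 8, 92827291 to 92853420, plus strand of GRCm38), made mainly by stromal cells, stood at 84.7 and 70.9 FPKM in the libraries labelled Cre, against 359.9 and 107.9 FPKM in those labelled floxed. The groups did not overlap, but floxed replicate 1 was 3.12 times floxed replicate 2 in CPM, a wider gap than that between floxed replicate 2 and either library labelled Cre. The log2 fold change was -1.56 ± 0.58 (SE, edgeR adjusted p = 0.333), and it was -0.52 without floxed replicate 1 and -2.17 without floxed replicate 2. Mmp9 (chromosome 2, 164940780 to 164955850, plus strand), which neutrophils and macrophages also make, stood at 5.16 and 4.44 FPKM in the libraries labelled Cre, against 22.4 and 8.54 FPKM in those labelled floxed. Its values did not overlap either, with a log2 fold change of -1.67 ± 0.46 (SE, adjusted p = 0.237), -0.88 without floxed replicate 1 and -2.18 without floxed replicate 2. Neutrophil markers were lower as well: their 8 genes summed to 28.1 and 26.8 FPKM in the libraries labelled Cre, against 200.8 and 168.3 FPKM in those labelled floxed, and 6 of 6 tested were lower with no overlap. S100a8, a calcium-binding protein of neutrophils, stood at 0.0727 and 0.248 FPKM in the libraries labelled Cre, against 16.7 and 35.5 FPKM in those labelled floxed. Retnlg made most of the neutrophil sum in the libraries labelled Cre, at 25.5 and 23.9 FPKM. Elane, neutrophil elastase, was not tested, and held 3 and 0 counts in Cre replicates 1 and 2, against 1 and 0 counts in floxed replicates 1 and 2. Of the 6 tested, Cxcr2, Csf3r and Retnlg were higher in floxed replicate 1, as Mmp9 was, and S100a8, S100a9 and Ly6g in floxed replicate 2. Of macrophage markers 2 of 7 were higher and 2 of 7 lower without overlap, near the 24.7% and 23.6% of all genes tested, and they summed to 258.3 and 321.9 FPKM in the libraries labelled Cre, against 531.9 and 295.8 FPKM in those labelled floxed. The part of either cell type in the Mmp9 values was not tested.

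Mmp11 had the largest fitted difference of the tested members with all 4 libraries, and Adamts7 without floxed replicate 2. Mmp11 is secreted in active form after furin cuts its propeptide and is known from stroma next to epithelium. Mmp11 (chromosome 10, 75923222 to 75936496, minus strand, reaching beyond the RefSeq start used above) stood at 10.5 and 9.37 FPKM in the libraries labelled Cre, against 47.6 and 57.3 FPKM in those labelled floxed. The libraries within each group lay close together and the groups far apart. Its log2 fold change was -2.41 ± 0.24 (SE, edgeR adjusted p = 0.0919), and -2.58 to -2.22 with 1 library left out. Mmp11 passed with DESeq2, which called 405 genes lower and 438 higher. It also passed with no filter on low genes, where edgeR called 933 genes lower and 995 higher. Exons of other genes, mainly Chchd10 on the opposite strand, cover 5.58% of its exon bases, and whether reads were counted by strand is not stated. Of 7 stromal markers 2 were higher and 4 lower without overlap, against 24.7% and 23.6% of all genes tested, and they summed to 385.8 and 390.0 FPKM in the libraries labelled Cre, against 451.9 and 469.1 FPKM in those labelled floxed. Their part in the Mmp2 and Mmp11 values was not tested. Mmp28, another furin-activated enzyme, stood at 1.76 and 1.73 FPKM in the libraries labelled Cre, against 1.20 and 1.46 FPKM in those labelled floxed. Its log2 fold change of 0.38 ± 0.36 (SE, adjusted p = 0.666) did not have the sign of that of Mmp11, but its SE was nearly as large as the value.

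The stromelysin Mmp3 and the matrilysin Mmp7 lie in a block of 8 MMP members on chromosome 9 (7272514 to 7699585 on GRCm38). Mmp3 cuts proteoglycans, laminin and other proenzymes of the family, and Mmp7 is made by uterine epithelium. Mmp3 (7445822 to 7455975, plus strand) stood at 2.69 and 2.61 FPKM in the libraries labelled Cre, against 9.61 and 4.06 FPKM in those labelled floxed. The groups did not overlap, with a log2 fold change of -1.35 ± 0.48 (SE, edgeR adjusted p = 0.319), -0.67 without floxed replicate 1 and -1.82 without floxed replicate 2. Mmp7 (7692090 to 7699585, plus strand) stood at 5.29 and 4.99 FPKM in the libraries labelled Cre, against 13.4 and 11.1 FPKM in those labelled floxed. Like Mmp11 it was even within each group, with a log2 fold change of -1.25 ± 0.31 (SE, adjusted p = 0.215) that ran from -1.34 to -1.16 with 1 library left out. It rests on 93 to 328 counts per library, and exons of AV064505 on the opposite strand cover 11.5% of its exon bases. Epithelial markers did not share one direction: 8 genes summed to 898.8 and 752.0 FPKM in the libraries labelled Cre, against 727.4 and 1130.0 FPKM in those labelled floxed. Of them 1 was higher and 3 were lower without overlap (24.7% and 23.6% of all genes tested). At an unadjusted p under 0.05 in edgeR 2 were lower and 0 higher (6.59% and 7.3% of all genes tested). Those 2 had the direction of Mmp7. Cldn4 stood at 8.83 and 8.71 FPKM in the Cre pair, against 42.3 and 39.4 FPKM in the floxed pair. Wnt7a stood at 11.1 and 12.3 FPKM, against 41.2 and 36.2 FPKM. The part of epithelium in the Mmp7 values was not tested. The other 6 members of the block, Mmp8, Mmp10, Mmp12, Mmp13, Mmp20 and Mmp27, were under the filter, with 0.686 FPKM for Mmp8 in Cre replicate 2 the highest value. The collagenases of the set, Mmp8 and Mmp13, which cut fibrillar collagen, were thus not tested. Mmp10 held 21 and 12 counts in the libraries labelled Cre, against 19 and 16 counts in those labelled floxed.

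**Figure D2:**
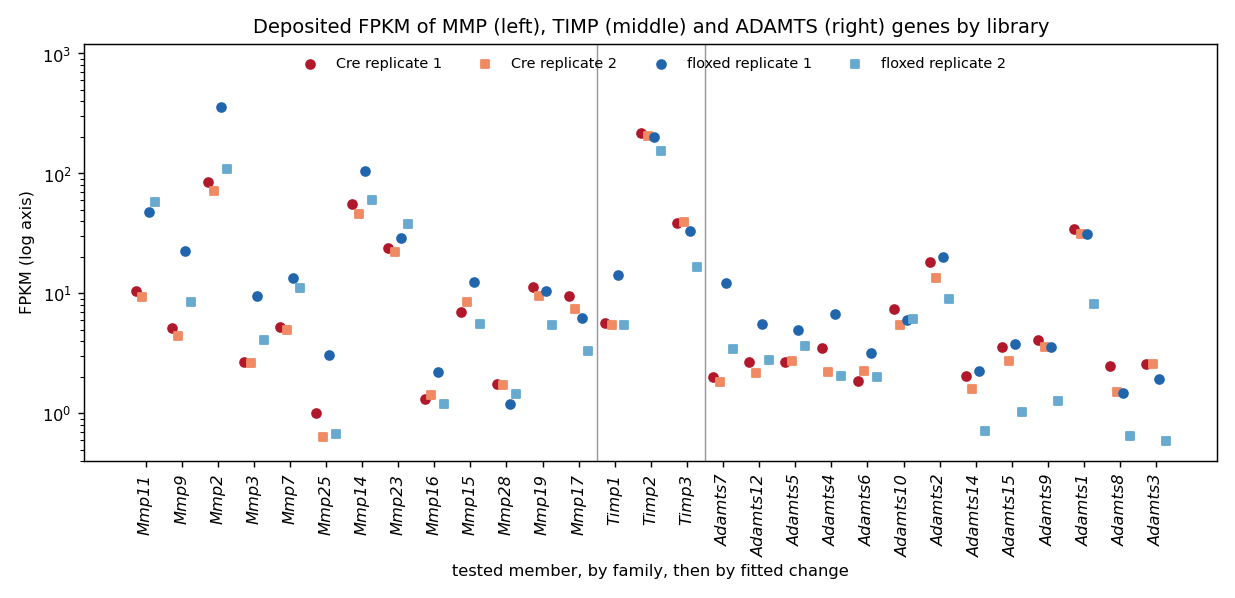
Deposited FPKM on a log axis for each tested member in each of the 4 libraries, Cre replicates left of floxed replicates, with families separated by vertical lines and members ordered by fitted change. Mmp11 and Mmp7 show 2 tight pairs set apart, while Mmp2, Mmp9 and Mmp3 show floxed replicate 1 above all the others.

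Of 7 membrane-anchored MMPs 6 were tested, and 2 were lower and 1 was higher in the libraries labelled Cre without overlap. These counts are near the background of 23.6% lower and 24.7% higher over all genes tested. Mmp14, which activates the Mmp2 proenzyme together with Timp2 at the cell surface, stood at 55.6 and 46.2 FPKM in the libraries labelled Cre, against 105.7 and 59.8 FPKM in those labelled floxed (log2 fold change -0.69 ± 0.34 SE, edgeR adjusted p = 0.443). The value was -0.28 without floxed replicate 1 and -1.01 without floxed replicate 2. It was the most abundant MMP after Mmp2 in all 4 libraries, with Mmp11 close behind at 57.3 FPKM in floxed replicate 2. Mmp23, which is held in the membrane by an amino-terminal anchor, stood at 23.9 and 22.0 FPKM in the libraries labelled Cre, against 29.1 and 38.2 FPKM in those labelled floxed (-0.56 ± 0.25 SE, adjusted p = 0.395). Mmp17, held by a lipid anchor, was on the other side, at 9.55 and 7.45 FPKM in the libraries labelled Cre, against 6.25 and 3.29 FPKM in those labelled floxed (0.84 ± 0.34 SE, adjusted p = 0.365). Without floxed replicate 1 Mmp17 was at 1.32 and without floxed replicate 2 at 0.48, and Mmp23 at -0.78 and -0.30. Smooth muscle markers had the direction of Mmp17: 6 of 6 were higher without overlap, summing to 2856 and 2558 FPKM in the libraries labelled Cre, against 1797 and 1540 FPKM in those labelled floxed, and their part in the Mmp17 values was not tested. Mmp25, a lipid-anchored enzyme known from neutrophils, stood at 1.01 and 0.638 FPKM in the libraries labelled Cre, against 3.05 and 0.674 FPKM in those labelled floxed, so that only floxed replicate 1 stood apart. Its log2 fold change of -1.15 ± 0.74 (SE, adjusted p = 0.533) was 0.24 without floxed replicate 1. Mmp15 and Mmp16 had log2 fold changes of -0.21 and -0.30 with overlapping groups, and Mmp24 had 0 counts in both libraries labelled Cre and 1 count in each labelled floxed. Mmp19, a secreted enzyme with 28.3% of its exon bases under exons of other genes, stood at 11.4 and 9.49 FPKM in the libraries labelled Cre, against 10.5 and 5.51 FPKM in those labelled floxed, which overlap.

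The inhibitors Timp2 and Timp3 were not lower with the proteases. Timp2 (chromosome 11, 118301069 to 118355740, minus strand), the most abundant TIMP and also the partner of Mmp14 in Mmp2 activation, stood at 215.6 and 206.3 FPKM in the libraries labelled Cre, against 202.4 and 154.4 FPKM in those labelled floxed. Those groups did not overlap, but the gap was small, with a log2 fold change of 0.25 ± 0.29 (SE, edgeR adjusted p = 0.729). Timp3, which stays bound to the matrix, stood at 38.3 and 39.2 FPKM in the libraries labelled Cre, against 33.2 and 16.4 FPKM in those labelled floxed (0.66 ± 0.36 SE, adjusted p = 0.482), and its log2 fold change was 1.19 without floxed replicate 1 and 0.26 without floxed replicate 2. Exons of other genes, mainly Syn3, which runs across it on the opposite strand, cover 21.3% of its exon bases. Timp1, an inducible inhibitor that binds the Mmp9 proenzyme, stood at 5.62 and 5.42 FPKM in the libraries labelled Cre, against 14.1 and 5.45 FPKM in those labelled floxed. Floxed replicate 2 lay between the libraries labelled Cre in FPKM and just above both in CPM, and the log2 fold change of -0.81 ± 0.52 (SE, adjusted p = 0.530) was -0.03 without floxed replicate 1.

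Timp4 stood out in a single library. It held 10 and 350 counts in Cre replicates 1 and 2, and 16 and 15 counts in the libraries labelled floxed, or 0.0856 and 3.40 FPKM in the Cre pair, against 0.118 and 0.140 FPKM in the floxed pair. Its mean FPKM was under the filter, so it was not tested; with no filter edgeR called it higher, on the counts of that 1 library. Mmp8 had the same library on top, with 2 and 29 counts in the libraries labelled Cre, against 6 and 8 counts in those labelled floxed. Cre replicate 2 was also the library with the most RNA of the oviduct genes Ovgp1 and Foxj1. Ovgp1, the oviduct glycoprotein, stood at 56.0 and 242.8 FPKM in the libraries labelled Cre, against 0.489 and 23.4 FPKM in those labelled floxed, and Foxj1, the regulator of motile cilia, at 9.94 and 28.4 FPKM in Cre replicates 1 and 2, against 0.598 and 1.34 FPKM in floxed replicates 1 and 2. The 6 oviduct and ovary genes summed to 81.3 and 282.5 FPKM in the libraries labelled Cre, against 6.20 and 28.2 FPKM in those labelled floxed. Ovgp1 made most of the sum in both libraries labelled Cre. Hsd3b1, Star and Inha were instead higher in Cre replicate 1 than in Cre replicate 2, while Cyp11a1 was higher in Cre replicate 2. The part of oviduct and ovary tissue in the Timp4 values was not tested. Neutrophil markers, by contrast with Mmp8, were low in both libraries labelled Cre.

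**Figure D3:**
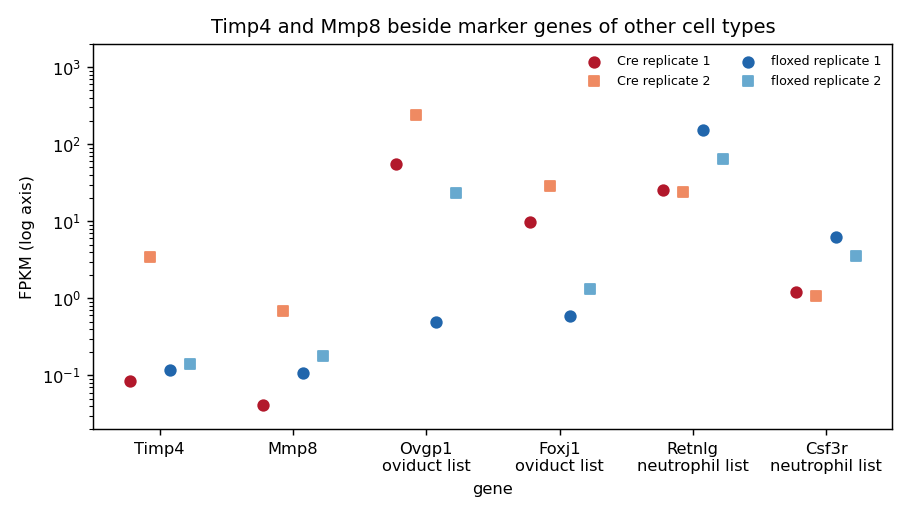
FPKM on a log axis of Timp4 and Mmp8 beside 2 genes of the oviduct and ovary list and 2 of the neutrophil list, in each library. Cre replicate 2 is highest for Timp4 at 3.40 FPKM, for Mmp8 at 0.686 FPKM, for Ovgp1 at 242.8 FPKM and for Foxj1 at 28.4 FPKM, but not for Retnlg or Csf3r.

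Added over all members, MMP transcripts were fewer relative to TIMP transcripts in the libraries labelled Cre. FPKM is per length, so it can be summed over genes. The 21 MMP genes summed to 220.7 and 191.5 FPKM in the libraries labelled Cre, against 625.2 and 305.7 FPKM in those labelled floxed, and averaged 206.1 ± 20.7 FPKM in the Cre pair and 465.4 ± 225.9 FPKM in the floxed pair (SD, n = 2 each). The exact two-sided permutation p was 0.333, and no smaller p can arise with 2 libraries a group. Mmp2 made up 38.4% and 37.0% of the MMP sum in the libraries labelled Cre, against 57.6% and 35.3% in those labelled floxed. The 4 TIMP genes summed to 259.6 and 254.3 FPKM in the libraries labelled Cre, against 249.8 and 176.4 FPKM in those labelled floxed (exact p = 0.333), and Timp2 was 81.0% to 87.5% of that sum. The MMP sum divided by the TIMP sum was 0.850 and 0.753 in the libraries labelled Cre, against 2.50 and 1.73 in those labelled floxed (exact p = 0.333), so the groups did not overlap. Without floxed replicate 1 the mean MMP sum of the libraries labelled Cre was 0.674 of that of floxed replicate 2, and with all libraries it was 0.443. The ratio describes transcripts, and neither protein nor protease activity was measured. ADAMTS genes summed to 89.0 and 74.5 FPKM in the libraries labelled Cre, against 105.6 and 42.7 FPKM in those labelled floxed, which lie on either side (exact p = 1.0).

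**Figure D4:**
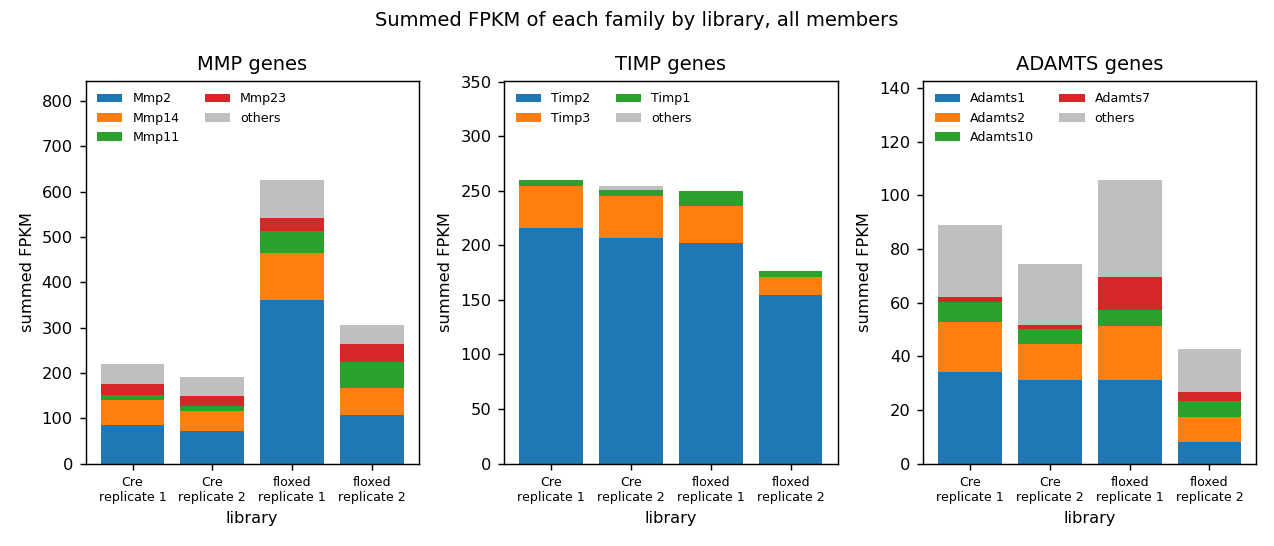
Summed FPKM of all members of each family in each library, libraries labelled Cre at the left, with the most abundant members in colour and the rest in grey. The MMP bars of the libraries labelled Cre (220.7 and 191.5) are lower than both floxed bars (625.2 and 305.7), while the TIMP bars lie between 176.4 and 259.6.

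Of 7 proteoglycan-cutting ADAMTS genes 6 were tested, and 3 were higher and 1 was lower in the libraries labelled Cre without overlap, where 24.7% and 23.6% of all genes tested were. Adamts1 (chromosome 16, 85793827 to 85803113, minus strand), which cuts versican and is induced by progesterone in the ovary, stood at 34.3 and 31.0 FPKM in the libraries labelled Cre, against 31.0 and 8.23 FPKM in those labelled floxed. Floxed replicate 1 had the level of the libraries labelled Cre, and its groups overlap in FPKM though not in scaled CPM. The log2 fold change of 0.76 ± 0.59 (SE, edgeR adjusted p = 0.596) was 0.11 without floxed replicate 2 and 1.94 without floxed replicate 1. Adamts9 stood at 4.06 and 3.60 FPKM in the libraries labelled Cre, against 3.59 and 1.27 FPKM in those labelled floxed, and Adamts8 at 2.48 and 1.50 FPKM in the Cre pair, against 1.49 and 0.643 FPKM in the floxed pair. Their log2 fold changes were 0.67 ± 0.47 and 0.91 ± 0.53 (SE, adjusted p = 0.559 and 0.494), and in both genes floxed replicate 2 was the lowest library. Without floxed replicate 1 Adamts9 was at 1.54 and Adamts8 at 1.58, and without floxed replicate 2 they were at 0.13 and 0.46. Adamts5, a strong aggrecan and versican protease that lies near Adamts1 on chromosome 16 (85856173 to 85901828), went the other way. It stood at 2.69 and 2.75 FPKM in the libraries labelled Cre, against 4.95 and 3.62 FPKM in those labelled floxed (-0.65 ± 0.22 SE, adjusted p = 0.302), and stayed between -0.83 and -0.46 with 1 library left out. Adamts4 and Adamts15 overlapped between groups, with log2 fold changes of -0.60 and 0.39. Versican itself, Vcan, a substrate of these enzymes, stood at 4.17 and 4.55 FPKM in the libraries labelled Cre, between the 18.5 and 0.821 FPKM of those labelled floxed.

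Adamts7 and Adamts12, which cut cartilage oligomeric matrix protein, were both lower in the libraries labelled Cre. Adamts7 (chromosome 9, 90163069 to 90208071, plus strand) stood at 2.02 and 1.83 FPKM in the libraries labelled Cre, against 12.3 and 3.44 FPKM in those labelled floxed. Its groups did not overlap, with a log2 fold change of -2.01 ± 0.59 (SE, edgeR adjusted p = 0.261), -0.89 without floxed replicate 1 and -2.64 without floxed replicate 2. Adamts12 stood at 2.67 and 2.19 FPKM in the libraries labelled Cre, against 5.61 and 2.78 FPKM in those labelled floxed (-0.77 ± 0.36 SE, adjusted p = 0.410), with floxed replicate 2 close to Cre replicate 1, and was at -0.24 without floxed replicate 1 and -1.17 without floxed replicate 2. Among the procollagen N-proteinases, which trim the amino ends of fibrillar procollagens, Adamts3 had higher values in both libraries labelled Cre. Adamts3 stood at 2.60 and 2.58 FPKM in the libraries labelled Cre, against 1.95 and 0.587 FPKM in those labelled floxed (1.05 ± 0.57 SE, adjusted p = 0.479). Its log2 fold change was 2.09 without floxed replicate 1 and 0.45 without floxed replicate 2. Adamts2, the most abundant of the 3, stood at 18.4 and 13.6 FPKM in the libraries labelled Cre, against 20.1 and 8.99 FPKM in those labelled floxed, which overlap (0.15 ± 0.41 SE). Adamts14 also overlapped (0.32 ± 0.58 SE). Adamts6 and Adamts10, related enzymes that act on fibrillin microfibrils, had log2 fold changes of -0.32 and 0.08 with overlapping groups.

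The 15 members under the filter included 13 below 1 FPKM in every library. The others were Timp4 and Adamts19, and Adamts19 stood at 0.729 and 0.641 FPKM in the libraries labelled Cre, against 1.97 and 0.450 FPKM in those labelled floxed. Of these 15, Mmp20 and Mmp24 had 0 counts in both libraries labelled Cre, and Mmp21 had 0 counts in both labelled floxed. A count of 0 allows up to 0.151 and 0.172 CPM in Cre replicates 1 and 2, and 0.131 and 0.165 CPM in floxed replicates 1 and 2 (3 counts of the total, counting error only). Adamts13, which cuts von Willebrand factor, had at most 9 counts in a library.

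The 2 libraries labelled floxed differed in these genes mostly one way. Floxed replicate 1 was above floxed replicate 2 in 25 of 29 tested members (86.2%, against 52.0% of all genes tested), and at least 2-fold above it in 15 (51.7%, against 10.0%). Floxed replicate 2 was at least 2-fold above floxed replicate 1 in 0 of the 29 (9.35% of all genes tested). The median ratio of floxed replicate 1 to floxed replicate 2 in CPM was 2.08 over the members and 1.02 over all genes tested. Mmp25, with a ratio of 4.23, and Adamts1, with 3.52, had the highest, while Mmp11, Mmp23, Mmp28 and Adamts10 had ratios from 0.712 to 0.908. Between the libraries labelled Cre no tested member differed 2-fold, with 1.66 for Adamts8 the highest ratio, where 1.07% and 1.7% of all genes tested did in the 2 directions. Of the 7 stromal markers 5 were also above in floxed replicate 1, among them Hoxa10 at 101.1 and 56.0 FPKM in floxed replicates 1 and 2. The other 2, Esr1 and Vim, were above in floxed replicate 2, with Vim at 161.0 and 280.8 FPKM. Floxed replicate 1 was also above in 7 of 7 macrophage, 4 of 5 endothelial, 4 of 4 mesothelial, 4 of 6 smooth muscle, 4 of 8 epithelial and 3 of 6 neutrophil markers tested, and in 1 of 5 of the oviduct and ovary list. The part of these cell types in the difference was not tested.

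**Figure D5:**
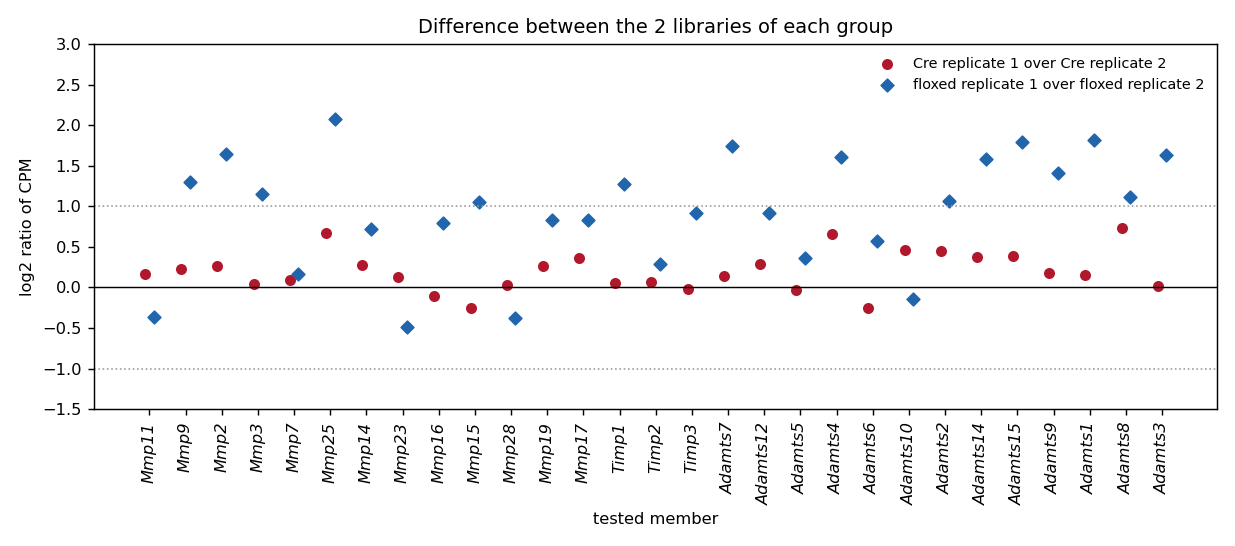
Log2 ratio of CPM between the 2 libraries of each group for each tested member, with dotted lines at a 2-fold difference. The floxed pair lies above 0 for 25 of 29 members and the Cre pair stays within the dotted lines throughout.

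Other genes of the pathway were read from lists chosen with earlier results of these data known, and 0 of their tested members passed at an adjusted p under 0.05 in edgeR. Of the genes given below, Plat, Adam33, Adamtsl1 and Papln passed with DESeq2, each in the same direction, as 405 lower and 438 higher of all 13513 genes tested did. The 2 genes of each list were picked by their edgeR p from the same counts, so this is not separate support. At an unadjusted p under 0.05, 7.3% of all genes tested were higher and 6.59% lower. In the plasminogen system, whose protease plasmin activates MMP proenzymes, 1 of 5 tested genes was lower at an unadjusted p under 0.05 and 0 were higher. That gene was Plat, tissue plasminogen activator, at 20.6 and 32.4 FPKM in the libraries labelled Cre, against 123.1 and 105.0 FPKM in those labelled floxed (log2 fold change -2.11 ± 0.34 SE, edgeR adjusted p = 0.114). Plau, urokinase, stood at 11.0 and 9.95 FPKM in the libraries labelled Cre, against 8.52 and 6.99 FPKM in those labelled floxed (0.44 ± 0.24 SE, adjusted p = 0.480). Of 5 tested ADAMTS-like genes, which share the non-catalytic domains of ADAMTS enzymes and have no protease, 3 were higher at an unadjusted p under 0.05 and 0 were lower, with a median log2 fold change of 1.13 beside -0.033 over all genes tested. Adamtsl1 stood at 7.83 and 6.47 FPKM in the libraries labelled Cre, against 3.71 and 2.85 FPKM in those labelled floxed (1.13 ± 0.23 SE, adjusted p = 0.160). Papln, papilin, stood at 7.54 and 3.78 FPKM in the libraries labelled Cre, against 1.21 and 1.82 FPKM in those labelled floxed (1.89 ± 0.46 SE, adjusted p = 0.205). In both genes the groups did not overlap.

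Among 9 ADAM proteases, relatives that shed membrane proteins, 1 was higher and 0 were lower at an unadjusted p under 0.05, near the 7.3% and 6.59% of all genes tested. Adam33 stood at 4.80 and 3.38 FPKM in the libraries labelled Cre, against 0.743 and 0.988 FPKM in those labelled floxed (log2 fold change 2.23 ± 0.36 SE, edgeR adjusted p = 0.114), and Adam9 at 31.3 and 30.9 FPKM in the Cre pair, against 28.8 and 16.7 FPKM in the floxed pair (0.46 ± 0.29 SE). Adam9 was at 0.85 without floxed replicate 1 and at 0.15 without floxed replicate 2. Adam33 is known from smooth muscle and fibroblasts. Its direction was that of the smooth muscle and mesothelial markers given above. Of 7 stromal markers 2 were higher and 4 lower without overlap (24.7% and 23.6% of all genes tested). The part of these cell types in the Adam33 values was not tested. None of the 9 activators, surface regulators and clearance genes reached an unadjusted p under 0.05, and their median was -0.06. Tfpi2, a protease inhibitor, stood at 1.18 and 1.21 FPKM in the libraries labelled Cre, against 2.37 and 2.11 FPKM in those labelled floxed. Cd44, a surface anchor for Mmp9, had a log2 fold change of -0.89 ± 0.56 (SE, adjusted p = 0.528), with overlapping groups and floxed replicate 1 the highest library. Furin, which activates Mmp11 and Mmp14, and Reck, a membrane inhibitor of MMPs, had log2 fold changes of -0.02 and -0.06. Of the tolloid and meprin list 3 of 7 genes were tested and 0 were lower or higher at that p, with Pcolce at 0.22 ± 0.28 (SE) and Pcolce2 at 0.20 ± 0.92 (SE). Of the hyalectans and link proteins, Vcan was the 1 gene tested.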

How the data were processed

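For each of 4 libraries the authors deposited raw counts and FPKM of 28545 genes, per the file headers. HISAT2, HTSeq 0.13.5 and the GRCm38 build are named in the submitters' processing notes; settings and strand of the counting were not stated. The deposited FPKM equalled the count per gene length and total count, within 1e-06 for 23463 of 23463 genes with values in 2 or more libraries, so it is relative to each library's own RNA. Of the genes, 1166 had no count.

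Counts were tested with edgeR 4.0.16 (R 4.3.3, quasi-likelihood, TMM scaling, no covariate, 2 residual degrees of freedom) on 13513 genes averaging 1 FPKM or more. P-values are two-sided and Benjamini-Hochberg adjusted over those genes. SE was derived from the F statistic (log2 fold change over its square root). Alternatives used DESeq2 1.42.0 and limma 3.58.1, and family sums an exact permutation test (SciPy 1.17.1). The edgeR and DESeq2 steps were tested on simulated counts. Annotation, exon overlaps on either strand and coordinates are from GENCODE M21 (GRCm38), whose exon lengths matched the deposited ones within 0.1% for 44 of 44 members; upstream sequences are from RefSeq (GRCm38.p6).

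Members, lists and markers were chosen with earlier results of these data known. Values by library are given for TIMP genes and for tested members with a 2-fold fitted change or no overlap between groups, with the 2 list genes of smallest p. Mmp8, Mmp10, Mmp15, Mmp16, Mmp19, Mmp20, Mmp21, Mmp24, Adamts2, Adamts4, Adamts6, Adamts10, Adamts13, Adamts14, Adamts15, Adamts19, Furin, Reck and the marker genes shown were added after their values were seen.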

Additional observations from a re-analysis of the deposited data

How the results depend on the processing

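With 2 libraries a group and 2 residual degrees of freedom, calls turned on the filter, the tool and the libraries labelled floxed. Over all genes edgeR called 0 higher and 0 lower, against 995 and 933 with no filter, 438 and 405 with DESeq2, 0 to 2364 and 0 to 1885 with 1 library left out, and 1 higher with a mean FPKM of at least 5. Members called lower numbered 0, against 6 with no filter, 4 with DESeq2 and 0 to 13 with 1 library left out; members called higher numbered 0, against 1 with no filter (Timp4) and 0 to 10 with 1 library left out. Where a library was left out, the lone sample was assumed to vary like the remaining pair. At an unadjusted p under 0.05 there were 7 lower and 0 higher members, against 14 and 5 with no filter, 4 and 1 with a mean FPKM of at least 5, and 1 to 15 and 0 to 10 with 1 library left out. DESeq2 gave 1 higher. These counts are out of different totals: 29 members in the main fit, all 44 with no filter and 15 with a mean FPKM of at least 5. Groups did not overlap for 11 lower and 8 higher of 29 tested members, where 23.6% and 24.7% of all genes tested did not. With a mean FPKM of at least 5 they were 7 and 4 of 15 members. Added after seeing the data, they were 10 and 7 on deposited FPKM, and 11 to 19 and 8 to 15 with 1 library left out. Leaving out a library can only keep or add members without overlap, so that range cannot show whether the main counts hold.

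With 1 library left out, the median log2 fold change ran from -1.01 to -0.28 for MMP, 0.10 to 0.40 for TIMP and -0.27 to 0.78 for ADAMTS genes, and the ratio of summed FPKM, libraries labelled Cre over floxed, from 0.330 to 0.674, 1.03 to 1.46 and 0.774 to 1.92. Of 29 tested members, 21 kept their sign in every setting run. The others changed it with 1 library left out: Adamts10 (-0.18 to 0.30), Adamts14 (-0.27 to 1.32), Adamts15 (-0.24 to 1.56), Adamts2 (-0.29 to 0.78), Adamts4 (-1.19 to 0.42), Mmp15 (-0.65 to 0.42), Mmp16 (-0.65 to 0.16) and Mmp25 (-1.84 to 0.24). So did Cd44 (-1.51 to 0.20), Pcolce (-0.13 to 0.49), Pcolce2 (-0.66 to 2.49) and Vcan (-2.05 to 2.36); Vcan was also at 0.11 with limma on log2(FPKM + 0.1) and at 0.13 with the replicate block. The cause was not tested. The labels share replicate numbers, but same-numbered libraries did not deviate together over all genes tested (correlation -0.083). A single correlation across genes cannot show whether they share anything beyond the number. With the number as a replicate block 0 members were called, and 6 were lower and 1 was higher at an unadjusted p under 0.05.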
